A study of Mus musculus with 54 samples.

Results

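The comparison described here sets undifferentiated mouse embryonic stem cells (mESC) that express the EZH2 variant K563E against undifferentiated mESC that express added wild-type EZH2 (WT). The rule takes all genes in the 3 K563E and the 3 WT libraries, which are 6 of the 54 samples of the series. Of 55401 genes in the deposited table, 15830 had enough reads to be tested. The K563E line, named for the lysine-to-glutamate change in EZH2, and the WT line both descend from an Ezh2 fl/∆ heterozygote in which 1 of the Ezh2 alleles is deleted, so the added protein sits beside the product of the remaining allele in both. Further groups of 3 libraries each were used beside them. These were the lines with added A677T, R679C, K634E or A733T, the heterozygote with nothing added (het), and the parental line. The parental columns are headed flfl, read here as both Ezh2 alleles floxed and neither deleted. All of these groups were undifferentiated. K563E and WT libraries made after removal of 2i and LIF and brief treatment with all-trans retinoic acid (ATRA) were used for a comparison of states. The series concerns Weaver syndrome and includes 1 variant tied to growth restriction, and the labels do not say which variant that is. The promoter that drives the added EZH2, its protein level and whether a line is 1 clone were not given in the sources used here.

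EZH2 is the enzyme within Polycomb repressive complex 2 (PRC2); the complex places methyl groups on lysine 27 of histone H3 and so keeps developmental genes silent. EED and SUZ12 complete its core, EZH1 is the less active alternative catalytic subunit, and PRC1 complexes recognise or act beside the mark. Mouse embryonic stem cells kept in 2i and LIF are held in the naive state, and PRC2 is known in these cells for covering promoters of lineage regulators without being needed for self-renewal.

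The K563E libraries held 17394559 to 19748331 counts and the WT libraries 18835311 to 21556963. Levels are counts per 1e+06 library counts after TMM scaling (CPM), log2 fold changes are K563E over WT with their standard error (SE), and a gene is called changed at an adjusted p under 0.05. The labels do not state that the replicates of a line came from different cultures, so a p-value here measures only the spread between these libraries, and that spread may be technical. K563E replicate 3 stood apart from the other libraries of its group: the chi-square per degree of freedom was 12.9 and 17.8 against replicates 1 and 2, which differed from each other at 4.99, while WT pairs lay between 4.73 and 5.99. Libraries also differed in how their counts followed the GC content of genes. The Spearman correlation across genes between a library's deviation and GC content was -0.01, -0.07 and -0.59 in K563E replicates 1, 2 and 3, and 0.51, 0.58 and 0.74 in the WT replicates, and the log2 fold change itself correlated with GC content at -0.57 over 10468 genes. Counts of genes are therefore also given with a GC trend subtracted from each library (the GC correction) and without K563E replicate 3. With the GC correction the log2 fold change still correlated with GC content, at 0.13, so a weaker trend of opposite sign remained. The part of the GC trend in the results was not tested beyond these fits. Mitochondrial genes took 1.93% to 2.15% of counts in K563E and 1.48% to 1.81% in WT.

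**Figure D1:**
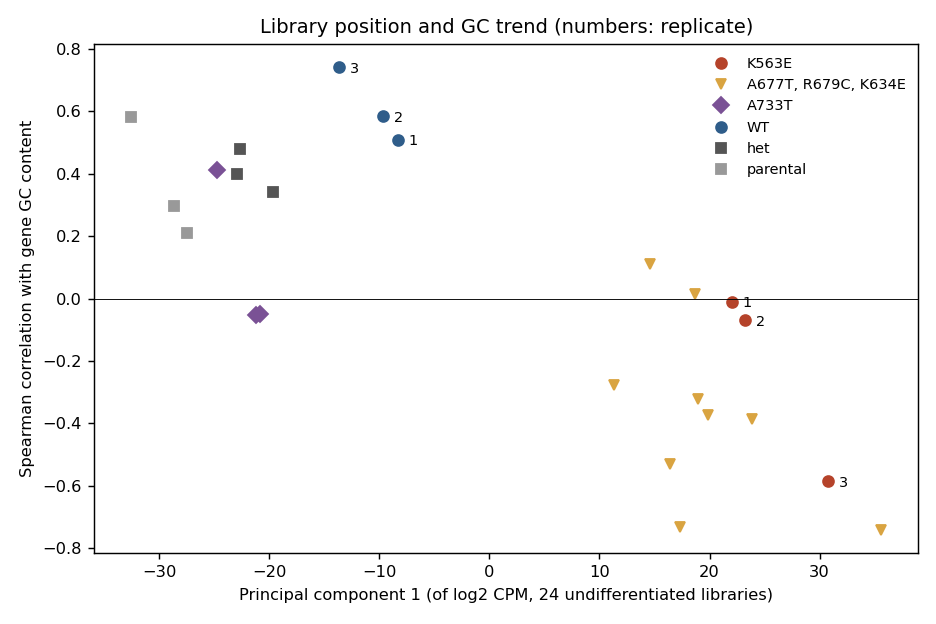
Each point is 1 of 24 undifferentiated libraries, placed by principal component 1 of log2 CPM (60.03% of the variance) on the x axis and by its Spearman correlation with gene GC content on the y axis. K563E libraries lie at 22.0, 23.2 and 30.7 on component 1, on the side of A677T, R679C and K634E, and the WT libraries lie between -13.7 and -8.3, on the side of A733T, het and parental; the 2 measures move together across libraries.

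The cell identity on the labels was checked against marker lists. Summed over 9 markers of undifferentiated stem cells, all above 0.5 CPM, the level was 5722 to 6155 CPM in K563E libraries and 6793 to 6867 CPM in WT libraries. The 6 markers of retinoic acid differentiation summed to 2.49 to 3.34 CPM in K563E and 3.36 to 3.78 CPM in WT, against 771 to 874 CPM in WT after ATRA. Fibroblast (feeder) markers summed to 1.47 to 1.96 CPM in K563E and 1.52 to 2.21 CPM in WT, and Postn and Dcn were at 0 in all 6 libraries. Markers of primitive endoderm summed to 69.9 to 84.1 CPM in K563E and 147 to 160 CPM in WT, with the defining genes Gata6, Sox17, Foxa2 and Afp under 0.5 CPM in both. This sum includes the basement membrane genes Lama1 and Col4a1, described below. Markers of trophoblast summed to 125 to 135 CPM in K563E and 93.6 to 99.0 CPM in WT, with Elf5, Krt7, Hand1 and Plac1 under 0.5 CPM. Markers of the 2-cell-like state reached 0.178 CPM at most in K563E and were at 0 in WT. In bulk libraries, fewer cells of a type and less RNA per cell cannot be told apart.

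Of the 15830 genes tested, 2657 (16.8%) were higher in K563E and 2810 (17.8%) lower by edgeR's quasi-likelihood test. The large changes ran mostly downward: 163 genes (1.03%) were called and at least 2-fold higher, and 799 genes (5.05%) were called and at least 2-fold lower. With the GC trend removed, 3343 genes (21.1%) were higher and 2260 (14.3%) lower, and at least 2-fold changes numbered 173 (1.09%) upward and 549 (3.47%) downward, so the overall split of calls depends on this choice while the excess of large decreases was present in both fits. In all, 1775 genes (11.2%) were called higher and 1774 (11.2%) lower in both fits. Without K563E replicate 3, 1825 of 16159 genes (11.3%) were higher and 2167 (13.4%) lower. The median log2 fold change over all genes tested was -0.01, and 0.04 with the GC correction. The shares called in each fit are the measure for the gene lists that follow, and several lists lie near them.

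**Figure D2:**
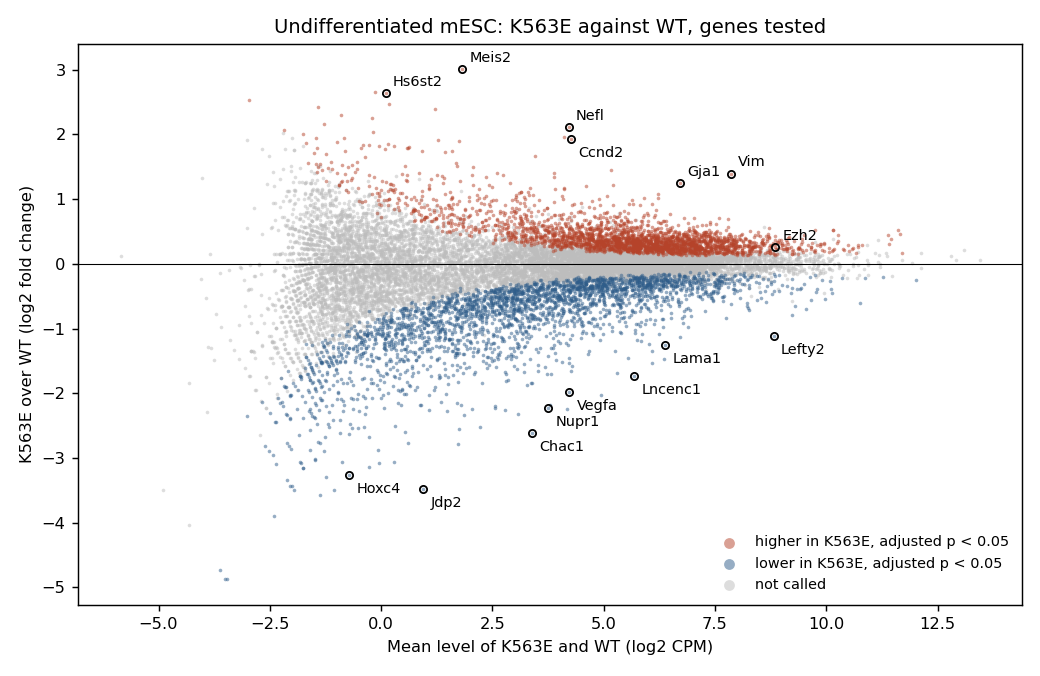
Each point is a gene tested in undifferentiated cells, with its mean level in K563E and WT in log2 CPM on the x axis and its K563E over WT log2 fold change on the y axis; called genes are coloured by direction. Large decreases such as that of Jdp2 (-3.48) outnumber large increases such as that of Meis2 (3.002), while Ezh2 lies near the line of no change at 0.26.

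Promoter sequences are shown for the top genes in each direction, since these carry the largest changes between the lines. Each is the RefSeq window on GRCm38.p6 from 250 bases before to 50 bases after the start, given 5′ to 3′ on the gene's strand, with every CG in capitals because CG-rich promoters are the ones PRC2 is known to occupy. Meis2 (chr2:116064570-116064869, minus strand) and Hs6st2 (chrX:51681553-51681852, minus strand) were higher in K563E, and Jdp2 (chr12:85598855-85599154, plus strand) and Hoxc4 (chr15:103034145-103034444, plus strand) were lower.
Meis2: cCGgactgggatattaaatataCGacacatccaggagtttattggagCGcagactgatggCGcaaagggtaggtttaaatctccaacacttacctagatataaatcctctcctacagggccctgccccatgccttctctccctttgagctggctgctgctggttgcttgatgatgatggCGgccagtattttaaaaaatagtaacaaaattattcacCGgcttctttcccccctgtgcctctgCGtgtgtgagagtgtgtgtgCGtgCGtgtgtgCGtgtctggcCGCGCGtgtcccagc
Hs6st2: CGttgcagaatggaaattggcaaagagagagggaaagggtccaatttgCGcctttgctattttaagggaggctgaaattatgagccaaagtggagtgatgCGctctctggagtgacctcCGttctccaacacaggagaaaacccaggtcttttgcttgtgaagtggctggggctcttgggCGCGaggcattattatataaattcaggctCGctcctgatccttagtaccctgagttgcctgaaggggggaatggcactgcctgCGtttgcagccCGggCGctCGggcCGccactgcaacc
Jdp2: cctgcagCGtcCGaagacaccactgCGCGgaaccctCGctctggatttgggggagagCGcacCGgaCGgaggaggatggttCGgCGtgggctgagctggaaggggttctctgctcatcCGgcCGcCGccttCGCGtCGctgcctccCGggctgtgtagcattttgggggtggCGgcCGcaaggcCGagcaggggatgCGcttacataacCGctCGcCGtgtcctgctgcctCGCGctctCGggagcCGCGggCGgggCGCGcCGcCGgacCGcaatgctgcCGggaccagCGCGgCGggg
Hoxc4: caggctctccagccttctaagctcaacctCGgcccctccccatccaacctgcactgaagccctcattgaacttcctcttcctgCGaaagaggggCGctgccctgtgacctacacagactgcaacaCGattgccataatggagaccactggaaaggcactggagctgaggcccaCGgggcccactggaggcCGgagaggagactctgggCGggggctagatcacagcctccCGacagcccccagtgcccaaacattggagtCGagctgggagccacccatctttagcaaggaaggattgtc
The windows hold 13, 12, 39 and 9 CG dinucleotides in the order printed. Of the 32851 promoter windows in the RefSeq table, 94.6% hold at least 1 CG on either strand, and the median number is 7. All 4 windows therefore lie above that median, both the pair from genes that rose and the pair from genes that fell; the letters are a description and say nothing of binding. Each RefSeq start lies inside the gene's longer span in GENCODE M21.

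The added transgene was examined first through Ezh2 itself (GRCm38 chr6:47530139-47595341, minus strand). Ezh2 had 485, 498 and 532 CPM in the K563E libraries, against 444, 424 and 396 CPM in the WT libraries. The K563E libraries were all higher, by 0.26 ± 0.07 on the log2 scale (SE; adjusted p = 0.00363, edgeR's quasi-likelihood test), but with the GC correction the difference was 0.10 (adjusted p = 0.117). Both lines lay well above het, at 269 ± 5.08 CPM, and parental, at 290 ± 3.55 CPM (SD, n = 3 each). Reads do not separate the added from the remaining endogenous transcript, and whether reads of the added EZH2 all fall on mouse Ezh2 was not given in the sources used here.

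Ezh1 fell in K563E, to 29.0, 22.9 and 28.1 CPM, against 33.3, 36.1 and 35.4 CPM in WT (log2 fold change -0.39 ± 0.09 SE, adjusted p = 0.000927). Eed stood at 262, 272 and 278 CPM in K563E and 247, 246 and 233 CPM in WT, a difference of 0.16 (adjusted p = 0.0296) that did not pass with the GC correction (0.04, adjusted p = 0.474), without K563E replicate 2 or 3, or without WT replicate 3, where it was 0.13 to 0.15 with adjusted p values of 0.0726 to 0.163. It also did not pass when only K563E and WT were fitted (adjusted p = 0.0747) or when no filter on low counts was used (adjusted p = 0.175). Suz12 stood at 296, 294 and 383 CPM in K563E and 314, 296 and 279 CPM in WT, and its fold change of 0.13 (adjusted p = 0.436) became -0.15 with the GC correction, where it was called lower (adjusted p = 0.0136), and -0.01 without K563E replicate 3. The call for Eed and both the call and the direction for Suz12 thus depended on the processing.

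Of 13 tested PRC2 core and accessory genes, 4 rose and 2 fell, and 4 rose and 4 fell with the GC correction. Aebp2, a zinc finger cofactor, rose 1.40-fold, and Phf1, a Polycomb-like cofactor that binds methylated histone H3, fell 1.73-fold; Phf1 shares exon sequence with Cuta on the opposite strand, and the counting is not stated to use strand. Of 24 tested PRC1 genes, 11 rose and 2 fell; under the GC correction these were 11 and 1, and without K563E replicate 3 they were 8 and 1. Rnf2, the RING1B ubiquitin ligase of PRC1, had 139, 150 and 174 CPM in K563E and 113, 108 and 101 CPM in WT. Bcor, a subunit of a PRC1 form that contains PCGF1, had 59.6, 53.8 and 57.4 CPM in K563E and 39.1, 39.5 and 38.1 CPM in WT. The fold changes were 1.44 and 1.46, in genes named for being among the list members with the lowest p. H3K27 demethylase and trithorax genes had 3 higher and 1 lower of 15 tested, and 1 higher and 1 lower without K563E replicate 3. Among all genes tested 16.8% were higher and 17.8% lower, and 11.3% and 13.4% without that library.

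The DNA methylation genes moved in both directions, with 4 of 9 higher and 3 lower. The de novo methyltransferases rose together: Dnmt3b had 133, 123 and 131 CPM in K563E and 101, 89.1 and 95.4 CPM in WT, and Dnmt3a rose 1.31-fold. Dnmt3l, their catalytically inactive partner, rose 1.43-fold. Uhrf1, which guides maintenance methylation, fell 1.25-fold. These calls were also made with the GC correction, with log2 fold changes of 0.61, 0.56, 0.68 and -0.13.

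Of the genes with the largest increase, the developmental transcription factors are given first. Meis2, a homeodomain factor that partners with HOX proteins (GRCm38 chr2:115863064-116065839, minus strand), had 6.35, 6.94 and 5.66 CPM in K563E, against 0.828, 0.782 and 0.736 CPM in WT. It was 8.01-fold higher (log2 3.002 ± 0.27 SE, adjusted p = 3.99e-09), and het and parental, at 1.45 and 1.0 CPM, lay much nearer WT than K563E. Evx1, a homeodomain factor of the primitive streak, had 4.10, 4.35 and 3.25 CPM in K563E and 0.536, 0.782 and 0.894 CPM in WT. It was 5.26-fold higher, and its exons overlap the antisense gene Evx1os. En1, a homeodomain factor of the midbrain and hindbrain border, and Pax6, a factor of the eye and forebrain, were 4.75-fold and 3.56-fold higher, with every K563E library above 1 CPM and every WT library below 0.5 CPM. Sp8, a zinc finger factor of limb and neural development, had 3.74, 3.92 and 3.83 CPM in K563E and 0.876, 1.15 and 0.999 CPM in WT.

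Several of the genes that rose belong to WNT signalling or to the cell cycle. Lef1, the transcription factor that carries WNT signals to DNA, had 25.6, 24.7 and 31.4 CPM in K563E and 8.03, 6.81 and 6.20 CPM in WT (log2 1.96 ± 0.11 SE, adjusted p = 7.14e-13). Wnt8a, a WNT ligand, had 1.6, 1.22 and 1.47 CPM in K563E and 0.536, 0.230 and 0.263 CPM in WT. Ccnd2, cyclin D2, had 33.7, 25.9 and 32.2 CPM in K563E and 8.67, 8.05 and 7.41 CPM in WT, a 3.80-fold increase. In these 3 genes the lowest K563E library was at least as far above the highest WT library as the WT libraries were from each other. The choice of these genes requires that K563E and WT libraries do not overlap. Ccnd1, cyclin D1, rose by 1.54-fold.

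The remaining increases included genes of the cytoskeleton and cell surface. Nefl, the light chain of neurofilaments, had 29.2, 29.9 and 31.6 CPM in K563E and 7.94, 6.81 and 6.25 CPM in WT. Vim, vimentin, had the lowest p among genes that rose: 345, 333 and 330 CPM in K563E and 136, 122 and 126 CPM in WT (log2 1.39 ± 0.06 SE, adjusted p = 1.69e-14). Gja1, the gap junction protein connexin 43, had 152, 148 and 146 CPM in K563E and 72.0, 60.9 and 55.6 CPM in WT. The 3 K563E libraries of each gene lay above every WT library, which the choice of genes requires. They also lay close together, which a choice by low p favours. Vim was lower still in het and parental, at 95.9 and 69.6 CPM on average, whereas Gja1, at 63.4 and 48.4 CPM, and Nefl, at 7.40 and 6.37 CPM, were near WT there. Itga1, the integrin alpha 1 collagen receptor, and Hs6st2, which sulfates heparan sulfate, rose 5.53-fold and 6.24-fold; Hs6st2 rests on 102 reads in K563E and 18 in WT. Egr1, an immediate early transcription factor, had 3.92, 4.66 and 7.34 CPM in K563E and 1.61, 1.52 and 1.16 CPM in WT, with the highest value in K563E replicate 3.

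**Figure D3:**
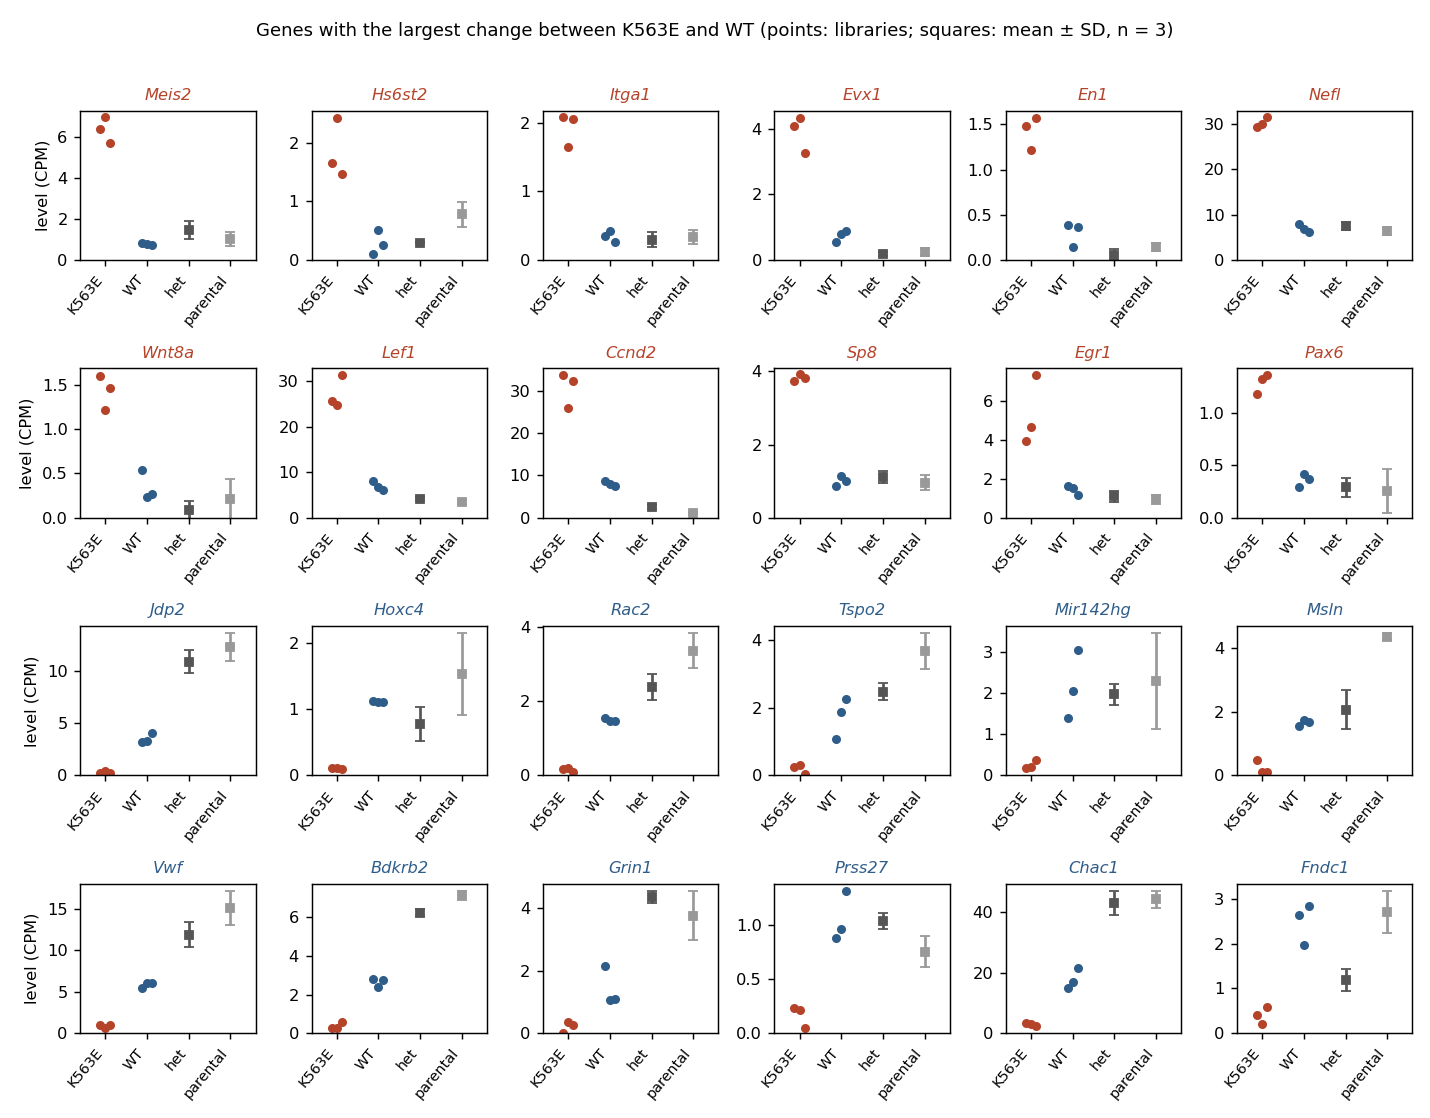
Level in CPM of the 12 genes with the largest increase (upper 2 rows) and the 12 with the largest decrease (lower 2 rows), with 1 point per K563E and WT library and squares with bars for the mean ± SD of het and parental (n = 3 each). K563E and WT libraries do not overlap, which the choice of genes requires; for Jdp2, Vwf and Chac1 K563E is below WT, and WT is below het and parental.

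Jdp2, a leucine zipper repressor of AP-1 and ATF target genes (GRCm38 chr12:85599027-85639878, plus strand), had the largest decrease of the genes named. It had 0.237, 0.477 and 0.210 CPM in K563E, against 3.21, 3.31 and 4.10 CPM in WT, and was 11.2-fold lower (log2 -3.48 ± 0.30 SE, adjusted p = 1.81e-09). Its level was higher still in het, at 10.9 ± 1.13 CPM, and parental, at 12.3 ± 1.32 CPM. Hoxc4, a homeobox gene (GRCm38 chr15:103018934-103036852, plus strand), had 0.119, 0.106 and 0.105 CPM in K563E and 1.12, 1.10 and 1.10 CPM in WT, which are 6 reads and 68 reads in all. Rac2, a small GTPase of blood cells, Tspo2, a translocator protein of the erythroid lineage, and Mir142hg, the host transcript of a microRNA of blood cells, were 8.83-fold, 8.4-fold and 8.31-fold lower. Vwf, von Willebrand factor of endothelium, had 1.01, 0.583 and 0.943 CPM in K563E and 5.45, 6.03 and 5.99 CPM in WT.

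Membrane and secreted proteins among the genes named for a large decrease come next. Msln, the surface protein mesothelin, and Bdkrb2, the bradykinin B2 receptor, were 7.38-fold and 6.82-fold lower. Grin1, a subunit of NMDA glutamate receptors, had 0, 0.371 and 0.262 CPM in K563E and 2.14, 1.06 and 1.10 CPM in WT, from 12 and 88 reads. Prss27, a serine protease, and Fndc1, a fibronectin type III domain protein, were 6.17-fold and 6.08-fold lower. All of these genes were low in WT too, and read number limits the precision of their fold changes.

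The decreases with the lowest p were in genes of higher level. Lncenc1, a long non-coding RNA of naive stem cells, had 23.5, 22.2 and 25.8 CPM in K563E and 75.0, 82.5 and 79.4 CPM in WT (log2 -1.73 ± 0.07 SE, adjusted p = 7.33e-15). Gpt2, mitochondrial alanine aminotransferase, had 36.7, 32.2 and 35.8 CPM in K563E and 99.3, 105 and 99.7 CPM in WT. Vegfa, the vascular growth factor, had 8.01, 7.63 and 7.13 CPM in K563E and 29.4, 29.3 and 30.9 CPM in WT. In each the 3 K563E libraries lay close together and far below WT, which a choice by low p and without overlap favours. Pou2f3, a POU domain factor, was 4.55-fold lower, at 4.98 ± 0.617 CPM in K563E and 22.7 ± 1.36 CPM in WT (SD, n = 3 each).

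Genes of the integrated stress response fell nearly throughout. This programme, run by the transcription factor ATF4, raises amino acid synthesis, amino acid transport and redox genes when translation is limited. Of its 27 tested genes, 23 fell and 0 rose, and 21 fell and 0 rose without K563E replicate 3. The median log2 fold change was -0.60 (a median level of 66.0% of WT), and with the GC correction 19 fell, 1 rose and the median was -0.53. Chac1, which degrades glutathione, had 3.44, 2.97 and 2.41 CPM in K563E and 15.1, 17.0 and 21.7 CPM in WT. Nupr1, a stress-induced chromatin protein, had 4.69, 5.09 and 4.46 CPM in K563E and 22.9, 21.8 and 22.1 CPM in WT. Pck2, mitochondrial phosphoenolpyruvate carboxykinase, had 20.5, 19 and 16.5 CPM in K563E and 55.0, 60.4 and 64.3 CPM in WT. Vldlr, a lipoprotein receptor, was 4.45-fold lower. For all 4 genes the order of levels was K563E below WT and WT below het and parental: Chac1 averaged 2.94 ± 0.517 CPM in K563E, 18 ± 3.38 CPM in WT, 43.2 ± 3.96 CPM in het and 44.4 ± 2.76 CPM in parental cells (SD, n = 3 each), and het and parental did not differ beyond their spread.

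The related lists of protein folding and heat shock did not share that uniform fall. Of 18 tested genes, 4 fell and 2 rose, near the shares among all genes tested, 17.8% lower and 16.8% higher. With the GC correction 5 fell and 4 rose. Herpud1, of the endoplasmic reticulum degradation machinery, and Xbp1, the transcription factor of the unfolded protein response, fell 1.76-fold and 1.67-fold. Hspa8, the constitutive HSC70 chaperone, rose 1.43-fold.

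Basement membrane genes also fell nearly throughout. Of 17 tested, 16 fell and 0 rose, with and without K563E replicate 3, the median log2 fold change was -0.62, and with the GC correction 12 fell, 1 rose and the median was -0.35. Lama1, the laminin alpha 1 chain of early embryonic basement membranes, had 54.0, 46.7 and 46.9 CPM in K563E and 109, 123 and 118 CPM in WT. Nid1, the linker protein nidogen 1, had 88.4, 77.0 and 76.9 CPM in K563E and 166, 160 and 150 CPM in WT. Lama3, a chain of epithelial laminin, was 1.86-fold lower. Primitive endoderm is a main maker of these proteins in the embryo, and its summed markers were lower in K563E as given above. That sum includes the basement membrane genes Lama1 and Col4a1, and Lama1 makes up most of it. The lower sum is therefore not separate from the fall described here. The defining endoderm genes were under 0.5 CPM, and the part of endoderm cells in the result was not tested. In the wider endoderm list, 5 of 12 tested genes fell and 1 rose.

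Genes of cell contact changed in both directions. In the gap junction and adhesion list, 5 of 19 rose and 9 fell (4 and 7 with the GC correction). Against the rise of Gja1 and Itga1, Gjb5, connexin 31.1, had 8.13, 10.1 and 8.91 CPM in K563E and 20.5, 19.6 and 20.2 CPM in WT. Itgb4, the integrin beta 4 laminin receptor of epithelia, fell 2.58-fold. In the list of cytoskeleton and mesenchymal shift, 6 of 26 rose and 11 fell. Beside the rise of Vim and Nefl, the epithelial tight junction genes Cldn6 and Cldn7 fell 2.10-fold and 2.7-fold.

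Of 28 tested naive pluripotency genes, 15 fell and 4 rose, and without K563E replicate 3, 13 fell and 4 rose. The median log2 fold change of -0.17 became 0.01 with the GC correction, with which 11 fell and 7 rose. Tcl1, a coactivator of AKT, had 31.4, 32.4 and 28.6 CPM in K563E and 56.0, 61.5 and 61.9 CPM in WT. Tfcp2l1, a core factor of the naive network, had 828, 729 and 892 CPM in K563E, against 1164, 1228 and 1161 CPM in WT. Pecam1 and Spp1, a surface marker and a secreted phosphoprotein of naive cells, fell 1.65-fold and 1.57-fold. Gbx2, a homeobox gene downstream of STAT3, went against the list and rose 1.90-fold.

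In the list of formative and primed epiblast genes 12 of 25 rose and 5 fell, with 12 and 3 without K563E replicate 3, 15 and 2 with the GC correction, and medians of 0.38 and 0.47 with it. Dusp6, a phosphatase that restrains ERK, had 54.6, 49.3 and 51.7 CPM in K563E and 29.4, 32.2 and 28.9 CPM in WT, and Zic2, a zinc finger factor of the epiblast, rose 1.58-fold. Lefty2 and Lefty1, secreted inhibitors of Nodal, fell instead: Lefty2 had 303, 298 and 261 CPM in K563E and 611, 622 and 625 CPM in WT. In the general pluripotency list 7 of 13 rose and 0 fell (9 and 1 with the GC correction), with a median of 0.28. The RNA-binding proteins Lin28b and Lin28a, which restrain let-7 microRNAs, rose 1.90-fold and 1.32-fold, and L1td1, a further RNA-binding protein of stem cells, rose 1.36-fold.

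Signalling lists differed in direction. The LIF and STAT3 list had 10 of 15 lower and 2 higher, but with the GC correction 5 were lower and 3 higher and the median of -0.39 became -0.03; without K563E replicate 3, 8 were lower and 1 higher. The ERK list had 9 of 25 higher and 3 lower; the GC-corrected fit gave 14 and 2. Spry4, a feedback inhibitor of receptor signalling, had 151, 142 and 140 CPM in K563E and 92.1, 92.6 and 95.1 CPM in WT, and Myc rose 1.73-fold. Epha4, an ephrin receptor, fell 1.80-fold. The BMP list had 9 of 19 higher and 3 lower; the ligand Bmp4 had 45, 42.8 and 35.4 CPM in K563E and 24.8, 23.6 and 27.4 CPM in WT, the target Id2 rose 2.29-fold and the ligand Bmp7 fell 2.23-fold. The Nodal list was mixed, with 5 higher and 6 lower of 17, 8 and 7 with the GC correction, and 3 and 6 without K563E replicate 3.

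The list of WNT genes, which includes Lef1, was also mixed. Of 31 tested WNT ligands and targets, 9 rose and 8 fell, but 14 rose and 2 fell with the GC correction, and the median of -0.17 became 0.11. Without K563E replicate 3, 7 rose and 5 fell. Sfrp1, a secreted WNT antagonist, had 242, 236 and 221 CPM in K563E and 396, 387 and 360 CPM in WT. Ror1, a receptor of non-canonical WNT ligands, rose 3.45-fold. In axon guidance genes, 6 of 21 rose and 6 fell, and 9 rose and 4 fell with the GC correction; Sema3e, a semaphorin, rose 3.35-fold.

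Developmental Polycomb targets did not move one way. Of 85 found in the table, 35 passed the filter on low counts, and of these 11 rose and 11 fell. The median of -0.33 became 0.11 with the GC correction, with which 11 rose and 8 fell. Meis2, En1 and Pax6 were among those that rose. Foxd1, a forkhead factor, fell: it had 4.63, 5.51 and 4.51 CPM in K563E and 13.1, 10.5 and 12.6 CPM in WT. Its K563E level was, however, above het and parental, at 1.62 and 1.87 CPM on average (log2 1.61 over het, adjusted p = 1.17e-07). Of 39 Hox genes, 9 passed the filter, 4 fell and 0 rose in both fits, and 3 fell without K563E replicate 3. Of all genes tested, 17.8% were lower, 14.3% with the GC correction and 13.4% without that library. The filter used the libraries of all lines, so a gene near the floor in K563E could pass through lines where it is higher. These counts therefore describe the genes that passed and not the Hox family. Besides Hoxc4, Hoxc12 had 0.356, 0.530 and 0.419 CPM in K563E and 1.80, 1.29 and 2.26 CPM in WT, and Hoxc13 fell 1.89-fold. The remaining 30 Hox genes were too low to be tested in undifferentiated cells.

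Lineage lists were low and split. Neuroectoderm genes had 7 of 14 higher and 3 lower, mesoderm genes 5 of 14 higher and 2 lower, and trophoblast genes 5 of 13 higher and 6 lower (5 and 3 with the GC correction). Eomes, a T-box factor shared by the mesoderm and trophoblast lists, had 73.7, 68.4 and 66.6 CPM in K563E and 46.0, 44.5 and 42.1 CPM in WT. Blood and endothelium genes had 5 of 15 lower and 0 higher, Vwf and Pecam1 among them; the GC correction gave 3 lower and 1 higher, and 3 were lower without K563E replicate 3. Fibroblast genes had 2 of 9 lower and 0 higher, and 1 lower without that library. Retinoic acid genes had 4 of 19 higher and 6 lower, and 5 higher and 4 lower with the GC correction; the binding protein Crabp1 fell 2.48-fold. Germline genes had 3 of 24 higher and 4 lower, not above the shares among all genes tested, 16.8% and 17.8%. Without K563E replicate 3 these counts were 1 and 3. Of 7 clustered protocadherins tested none was called by edgeR in either fit.

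Metabolic lists fell in part. Hypoxia and glycolysis genes had 14 of 31 lower and 3 higher, 10 and 3 without K563E replicate 3, and 11 and 8 with the GC correction. Pfkp, platelet phosphofructokinase, had 435, 421 and 462 CPM in K563E and 714, 777 and 782 CPM in WT, Hk1, hexokinase 1, fell 2.09-fold, and Egln3, a prolyl hydroxylase that marks hypoxia-inducible factor, fell 2.34-fold. Cholesterol synthesis genes had 12 of 21 lower and 0 higher, with a median of -0.27, and 10 lower and 1 higher with the GC correction. Their changes were small: Insig1, the sterol sensor partner, had 99.8, 97.5 and 97.8 CPM in K563E and 131, 132 and 130 CPM in WT, and Msmo1, a sterol oxidase, fell 1.36-fold. Nuclear genes of oxidative phosphorylation were seldom called, with 2 of 31 higher and 1 lower. Ribosomal protein genes had 2 of 33 higher and 0 lower; the GC-corrected fit gave 11 higher.

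Growth and disease lists were described next, since the series concerns an overgrowth syndrome. Skeletal growth genes had 10 of 16 lower and 2 higher (7 and 3 with the GC correction), with a median of -0.74. Fgfr3, a fibroblast growth factor receptor that restrains bone growth, had 0.653, 0.636 and 0.419 CPM in K563E and 2.58, 2.39 and 1.89 CPM in WT, and Col9a2, a cartilage collagen chain, fell 3.2-fold. IGF and growth control genes had 7 of 26 higher and 6 lower, where 16.8% and 17.8% of all genes tested were. With the GC correction 7 were higher and 4 lower. Ghr, the growth hormone receptor, had 3.44, 3.29 and 3.67 CPM in K563E and 1.41, 1.20 and 1.42 CPM in WT, while Igfbp4, an IGF-binding protein, and Igf2bp2, an RNA-binding protein, fell 2.49-fold and 1.54-fold. Imprinted genes had 9 of 45 higher and 6 lower, near the shares among all genes tested, 16.8% higher and 17.8% lower. Peg10, a retrotransposon-derived gene of placenta, rose 1.69-fold, and Mest, a paternally expressed gene, rose 1.44-fold. Grb10, an adaptor that restrains insulin signalling, fell 1.58-fold. Mest overlaps Copg2 on the opposite strand. Genes of other overgrowth syndromes had 6 of 18 higher and 2 lower. The GC-corrected fit gave 4 and 4, and leaving out K563E replicate 3 gave 3 and 1. Among all genes tested, 21.1% were higher and 14.3% lower with the GC correction. Without that library 11.3% were higher and 13.4% lower.

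Of the cell cycle and p53 lists, the p53 targets had 10 of 23 higher and 2 lower (14 and 2 with the GC correction). Plk2, a kinase, had 24.3, 23.5 and 29.2 CPM in K563E and 13.8, 12.7 and 14.6 CPM in WT, and Pmaip1, the NOXA cell death protein, rose 1.89-fold. Gdf15, a secreted growth differentiation factor that is also induced by stress, fell 2.72-fold. Proliferation genes had 7 of 28 higher and 0 lower (8 and 2 with the GC correction, 3 and 0 without K563E replicate 3). For comparison, 16.8% of all genes tested were higher, 21.1% with the GC correction and 11.3% without that library. Among cyclin D and inhibitor genes 3 of 15 were higher, Ccnd2 and Ccnd1 among them, and 1 lower, with a median of -0.05; Cdkn2a, which encodes the INK4A and ARF inhibitors, had 16.6, 17.9 and 15.6 CPM in K563E and 10.7, 10.3 and 10.1 CPM in WT.

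Interferon response genes, a list that includes class I histocompatibility genes, had 9 of 15 lower and 1 higher, and 8 and 1 with the GC correction or without K563E replicate 3. H2-K1 had 9.14, 8.05 and 7.02 CPM in K563E and 26.3, 19.7 and 21.8 CPM in WT, and H2-D1 fell 2.92-fold; these genes have near-identical copies, so reads can be split among them. Ifitm3, a membrane protein that restricts viral entry, had 60.8, 64.8 and 47.9 CPM in K563E and 106, 101 and 107 CPM in WT. Xaf1, a cell death factor, fell 2.57-fold. The median log2 fold change of the 15 genes was -0.41.

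**Figure D4:**
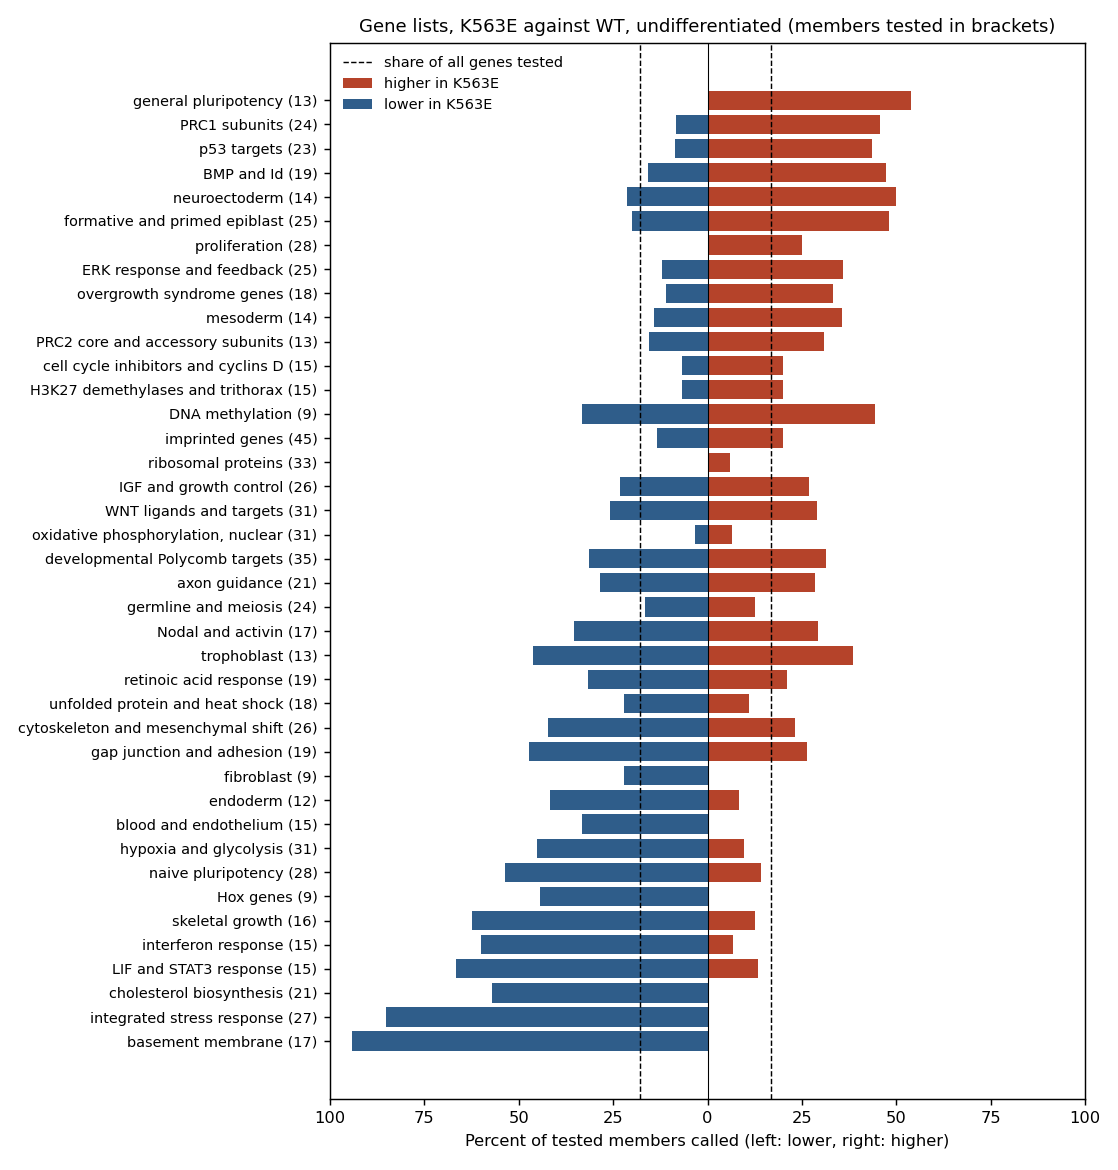
Percent of the tested members of each gene list called higher (right) or lower (left) in K563E than in WT, with the number of members tested in brackets; lists with under 9 tested members are not drawn. Dashed lines mark the shares among all genes tested, 16.8% higher and 17.8% lower; the basement membrane list (16 of 17 lower) and the integrated stress response list (23 of 27 lower) reach farthest from them.

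The K563E line was next compared with het, which carries the same deletion and no added EZH2; the WT line enters neither side. Of 15830 genes, 3474 (21.9%) were higher in K563E and 3783 (23.9%) lower, and 4694 (29.7%) were higher and 3341 (21.1%) lower with the GC correction. Evx1 averaged 3.90 ± 0.574 CPM in K563E and 0.181 ± 0.0587 CPM in het, and Ccnd2 30.6 ± 4.15 CPM in K563E and 2.55 ± 0.510 CPM in het (SD, n = 3 each). En1, Wnt8a and Btla, an inhibitory receptor of lymphocytes, completed the 5 largest increases, with log2 fold changes of 4.40, 4.10 and 3.10. Each of these genes had an intermediate mean in WT cells, such as 8.04 CPM for Ccnd2 and 1.68 CPM for Btla. Jdp2, Bdkrb2, Grin1, Inhbe, an activin subunit of the stress response, and Adssl1, a purine synthesis enzyme of muscle, had the largest decreases, at -5.11, -4.0, -4.28, -4.57 and -4.13. Inhbe had 0.0924 ± 0.0352 CPM in K563E and 2.30 ± 0.419 CPM in het. These values share the K563E libraries with the comparison to WT and so are not a separate repeat of it.

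K563E was also set against the mean of A677T, R679C and K634E, whose libraries correlated with GC content at -0.74 to 0.11, against -0.59 to -0.01 in K563E. Here 239 genes (1.51%) were higher in K563E and 414 (2.62%) lower. With the GC correction the numbers were 1142 (7.21%) and 786 (4.97%), so the prevailing direction turned with that choice. The total of 653 was 309 without K563E replicate 1, 268 without K563E replicate 2 and 201 when only these 4 lines were fitted. Egr1 averaged 5.31 ± 1.80 CPM in K563E and 1.91 ± 0.802, 1.61 ± 0.296 and 1.53 ± 0.220 CPM in A677T, R679C and K634E (log2 1.66 ± 0.20 SE, adjusted p = 7.38e-06). Fos, the immediate early partner of JUN, averaged 3.97 ± 0.668 CPM in K563E and 1.73 to 1.77 CPM in the other lines. The choice of both genes requires every K563E library to lie above every library of A677T, R679C and K634E. Both lay at 2.00 CPM or less on average in WT, so the K563E mean was above that of WT as well.

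The other named increases are given by line, and no test was run for single lines. Evx1 averaged 3.90 CPM in K563E, 0.433 CPM in A677T, 2.53 CPM in R679C and 1.76 CPM in K634E. Lef1 averaged 27.3 ± 3.64 CPM in K563E, 6.35 ± 0.624 CPM in A677T, 19.8 ± 0.502 CPM in R679C and 22.3 ± 1.37 CPM in K634E. For Lef1, A677T lay near the 7.01 CPM of WT, whereas R679C and K634E lay nearer K563E. Sema6a, a transmembrane semaphorin, was the fifth named increase, at 1.09 on the log2 scale.

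Of the genes lower in K563E than in the 3 other lines, Jdp2 averaged 0.308 CPM in K563E and 1.09, 0.787 and 1.68 CPM in A677T, R679C and K634E. Trim56, a ubiquitin ligase of antiviral signalling, averaged 1.43 ± 0.199 CPM in K563E and 5.57, 2.56 and 4.55 CPM in those lines. Nupr1 averaged 4.74 ± 0.320 CPM in K563E and 11.4 ± 2.66, 7.15 ± 0.0694 and 13.6 ± 1.6 CPM in those lines, against 22.3 CPM in WT. The choice of these genes requires every K563E library to lie below every library of the 3 other lines, so K563E is lowest by choice. By their means R679C was the next lowest in all 3 genes. Gulp1, an engulfment adaptor, and Retreg1, a receptor for autophagy of the endoplasmic reticulum, differed by -1.13 and -0.98 on the log2 scale. Ezh2 itself differed by -0.04 (adjusted p = 0.763), with means of 505, 552, 480 and 527 CPM in K563E, A677T, R679C and K634E.

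The last comparison asked whether the difference between K563E and WT depends on the state of the cells. The test of the change in fold change, after ATRA minus undifferentiated, called 428 of 17683 genes (2.42%) upward and 269 (1.52%) downward, and 506 (2.86%) upward and 627 (3.55%) downward with the GC correction. After ATRA itself, 1492 genes (8.44%) were higher in K563E than in WT and 2036 (11.5%) lower. Of the 14 genes named as higher in undifferentiated cells, 13 passed this test, each with a smaller increase or none after ATRA. En1 did not pass it (adjusted p = 0.371). These genes were chosen for a large change in undifferentiated cells, which favours a smaller one elsewhere. Of the 17 genes named as lower, 8 had a difference between states that passed, each with a smaller decrease or none after ATRA.

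Meis2, for instance, averaged 151 ± 7.83 CPM in K563E and 91.1 ± 3.70 CPM in WT after ATRA, a log2 fold change of 0.73 against 3.002 in undifferentiated cells. Ccnd2 averaged 187 ± 7.27 CPM in K563E and 119 ± 9.28 CPM in WT after ATRA, a log2 fold change of 0.66 against 1.92. Both genes were at a higher level in both lines after ATRA. The lines lay closer together in ratio but farther apart in CPM, and levels were scaled within each state. Chac1 averaged 8.25 ± 1.68 CPM in K563E and 8.55 ± 0.315 CPM in WT after ATRA, and its difference of -2.61 in undifferentiated cells was -0.05. Hoxc4 averaged 15.6 ± 1.77 CPM in K563E and 15.0 ± 0.568 CPM in WT after ATRA. By contrast Pck2 and Lncenc1 kept their decrease: the log2 fold change after ATRA was -1.85 and -1.73, and the difference between states did not pass the test (adjusted p = 0.883 and 0.959).

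Among the genes with the largest difference between states, Rassf4, a RAS association domain protein, averaged 0.374 CPM in K563E and 1.33 CPM in WT undifferentiated, and 11.7 ± 1.29 CPM in K563E and 4.16 ± 0.518 CPM in WT after ATRA, so its direction turned. Unc80, a subunit of a sodium leak channel, turned in the same way, at -2.17 undifferentiated and 0.87 after ATRA. Ndrg1, a hypoxia and differentiation gene, averaged 20.7 ± 2.14 CPM in K563E and 23.7 ± 2.61 CPM in WT undifferentiated, and 0.839 ± 0.224 CPM in K563E and 9.96 ± 3.53 CPM in WT after ATRA. A4galt, a glycosphingolipid galactosyltransferase, followed Ndrg1, with -0.70 undifferentiated and -3.34 after ATRA. Lrrn2, a leucine-rich repeat protein of neurons, turned the other way, with log2 fold changes of 0.97 undifferentiated and -1.80 after ATRA. Nlrp4a had 0 reads in the undifferentiated K563E libraries and 11 in WT, and Dcx 10 and 0, so no fold change is given for them. Spry4, named above for its rise in undifferentiated K563E cells, averaged 130 ± 5.37 CPM in K563E and 161 ± 4.63 CPM in WT after ATRA, a difference between states of -0.90 (adjusted p = 2.38e-09).

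**Figure D5:**
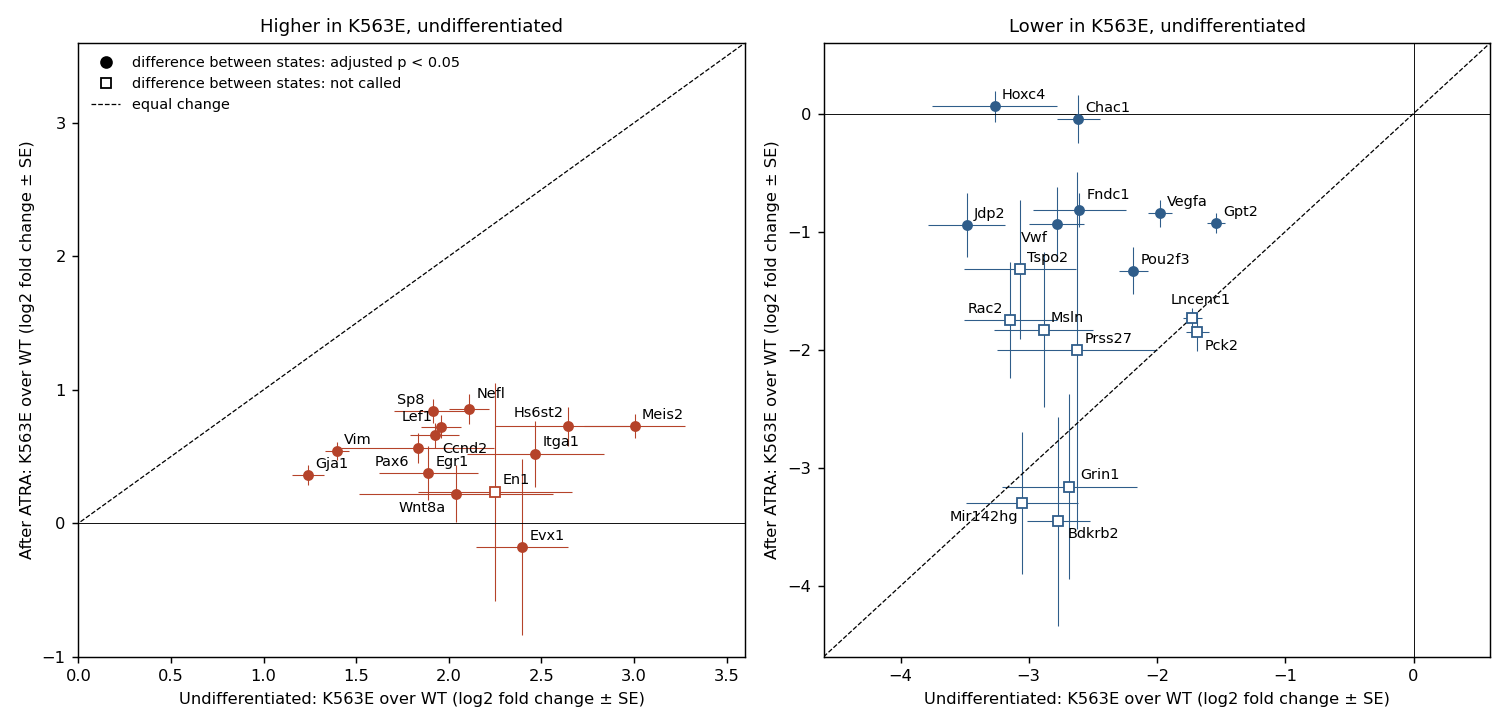
K563E over WT log2 fold change ± SE in undifferentiated cells (x axis) and after ATRA (y axis) for the genes named as higher (left panel) or lower (right panel) in undifferentiated K563E cells; filled points passed the test of the difference between states. Genes on the left lie below the dashed line of equal change, such as Meis2 at 3.002 and 0.73, whereas Pck2 and Lncenc1 on the right lie on or near it.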

How the data were processed

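RNA was measured by poly(A)-selected sequencing primed with random hexamers, per the labels' protocols. The authors deposited 1 table of raw counts of reads per gene, and the submitters' processing notes list the mm10 build with STAR 2.7.3a, cutadapt 3.2, DESeq2 1.38.3 and featureCounts 1.6.4. Neither strandedness nor the annotation release was given in the sources used here. Besides Phf1 and Mest, the exons of Pfkp, Dnmt3l, Rnf2 and Ccnd1 overlap Pitrm1, Aire, Trmt1l and LTO1 on the opposite strand. How reads in these overlaps were counted depends on the strandedness. Of 55401 gene identifiers, 55141 were found in GENCODE M21 on GRCm38, the build of mm10. By line, state and replicate number, 48 columns could be assigned to a sample, and 6 that match no label were left out.

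The tests used edgeR 4.0.16 in R 4.3.3 (filterByExpr, TMM, robust quasi-likelihood test) on the 24 undifferentiated libraries, fitted with a mean for each line and 16 residual degrees of freedom, and on all 48 libraries for the difference between states. The p-values were adjusted by Benjamini and Hochberg over all genes tested. The GC correction subtracts from each library a smooth trend on the GC content of a gene's transcripts. Other fits used DESeq2 size factors, DESeq2 1.42.0, no filter on low counts, only the lines compared, a replicate block, and each library left out in turn. The steps were tested on simulated data.

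By rule, the text names Ezh2, Ezh1, Eed and Suz12; per direction the 12 genes with the largest change and the 5 with the lowest p, among genes called in both fits with a mean of at least 1 CPM in K563E or WT, no overlap between the libraries and a symbol other than that of a predicted model; up to 4 members with the lowest p of each of 42 lists; and 5 genes per direction in the other comparisons. Some genes that this rule picks are not reported here. The members and lists were chosen with earlier results of these data known. Low counts limit the genes of low level, and the filter left 15830 of them to test in undifferentiated cells.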

Additional observations from a re-analysis of the deposited data

Results flagged for a closer look

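In 57 of the genes described, the K563E over WT difference after ATRA differed from that in undifferentiated cells by a test of the interaction in edgeR, with an adjusted p under 0.05 both without and with the GC correction. Most of these genes were described for their change in undifferentiated cells, which favours a smaller change after ATRA. Values are log2 fold changes after ATRA minus undifferentiated.

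Among the genes higher in undifferentiated K563E cells, the developmental regulators gave -2.24 for Meis2, -2.54 for Evx1, -1.04 for Sp8, -1.24 for Pax6, -0.92 for Eomes and -0.58 for Zic2. Evx1 was near the floor after ATRA, at 0.154 CPM in K563E and 0.190 CPM in WT. The signalling and cell cycle genes gave -1.20 for Lef1, -1.78 for Wnt8a, -1.40 for Bmp4, -0.90 for Spry4, -0.46 for Dusp6, -1.48 for Egr1, -0.48 for Myc and -1.23 for Ccnd2. The cytoskeleton and surface genes gave -1.22 for Nefl, -0.82 for Vim, -0.84 for Gja1, -1.91 for Itga1, -1.07 for Sema3e and -1.88 for Hs6st2. The DNA methylation genes gave -0.47 for Dnmt3b and -0.45 for Dnmt3l, and the imprinted gene Peg10 gave -0.55.

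Among the genes lower in undifferentiated K563E cells, the difference was 3.37 for Hoxc4, 2.60 for Chac1, 2.58 for Jdp2, 1.96 for Foxd1, 1.88 for Vwf, 1.82 for Fndc1, 1.80 for Igfbp4, 1.65 for Fgfr3 and 1.41 for Nupr1. It was 1.40 for Gjb5, 1.36 for Col9a2, 1.22 for Epha4, 1.19 for Gulp1, 1.17 for Vegfa and 1.01 for Itgb4. It was smaller for Herpud1 (0.99), Vldlr (0.97), Pou2f3 (0.89), H2-D1 (0.83), Grb10 (0.76), Gpt2 (0.65), Nid1 (0.51), Xbp1 (0.47), Ifitm3 (0.45) and Uhrf1 (0.36). Tfcp2l1 (-0.57) and Pfkp (-0.55) were lower by more after ATRA.

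The genes named for the difference between states itself gave 3.31 for Rassf4, 3.08 for Unc80 and 3.08 for Ppp1r14d, a phosphatase inhibitor, and -3.34 for Ndrg1, -2.73 for Lrrn2, -2.61 for A4galt and -2.56 for Acsbg1, a fatty acid activating enzyme of brain. Ppp1r14d was near the floor after ATRA, at 0.203 CPM in K563E and 0.134 CPM in WT, so its value there rests on few reads. Rassf4, Unc80, Lrrn2, Bmp4, Eomes, Spry4, Epha4 and Igfbp4 had called differences of opposite direction in the 2 states. Acsbg1 was below the filter on low counts in the undifferentiated fit.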

How the results depend on the processing

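The counts of genes changed between K563E and WT (5467) and between K563E and het (7257) moved by less than 1.5 times under all alternatives. Leaving out single libraries gave 3989 to 5082 genes for K563E against WT, 6112 to 6811 against het, 268 to 951 for K563E against the mean of A677T, R679C and K634E (653 in all libraries), and 519 to 683 for the difference between states (697 in all libraries). For K563E against those 3 variants, the count was 201 when only these lines were fitted, 1928 with the GC correction and 2274 with the GC correction and a replicate block. For the difference between states, the last 2 settings gave 1133 and 1315. The Suz12 fold change reversed to -0.15 with the GC correction, with and without the block, and leaving out single libraries gave -0.0086 (without K563E replicate 3) to 0.19; the cause was not tested. The replicate number was checked as a pairing: the deviations of same-numbered K563E and WT libraries correlated at -0.09, -0.30 and -0.34. These values gave no sign of a pairing. They cannot exclude one, since each deviation is taken from the mean of only 3 libraries. The replicate block gave 5722, 7485, 770 and 864 genes in the 4 comparisons, each more than without the block. Of 117 genes described, the DESeq2 test and DESeq2 size factors changed no call. Of 42 list medians, 31 moved by more than the spread between replicates with the GC correction and 9 when only the compared lines were fitted. With 3 libraries per line, low counts limit what can be called among genes of low level.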

Other observations

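Some gene families were picked from all genes after their values were seen and were not tested as groups. They share members with the lists above, such as H2-D1 and Dusp6, so their counts partly repeat those results. Of 19 tested H2 genes of the major histocompatibility complex, 10 were lower in K563E than in WT and 0 higher, with a median log2 fold change of -0.73 (8 lower and 0 higher, median -0.51, with the GC correction). Of 41 tested potassium channel genes named Kcn, 15 were lower and 0 higher (11 and 0 with the GC correction), and of 31 orphan G-protein-coupled receptors named Gpr, 10 were lower and 0 higher (4 and 0, and 6 and 0 without K563E replicate 3); of all genes tested, 17.8% were lower, 14.3% with the GC correction and 13.4% without that library. Keratin genes had 5 of 7 lower and 0 higher, and myosin genes 8 of 14 lower and 0 higher, with 1 higher under the GC correction.

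Zinc finger genes with numbered Zfp symbols ran the other way. Of 346 tested, 106 were higher in K563E and 21 lower, and 88 and 19 when GC was corrected for, and 63 and 12 without K563E replicate 3. The median was 0.17, and 0.09 with the correction. Among all genes tested 16.8% were higher, 21.1% with the GC correction and 11.3% without that library. Many of these genes are similar in sequence, so their reads can be split among them. Dual-specificity phosphatases, which restrain MAP kinases, had 5 of 19 higher and 0 lower; the GC-corrected fit gave 8 and 0, and leaving out K563E replicate 3 gave 2 and 0, where 11.3% of all genes were higher.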
